A study of Rattus norvegicus with 16 samples.

Results

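The genes described here are the myogenic transcription factors Myog, Myod1 and Myf6, the transcription factor Mef2d, which acts with them, and Fst, a secreted antagonist of ligands that restrain muscle growth. They were chosen by name, as every probe whose platform gene symbol, current or older, was one of these. This gave 5 genes with 1 probe each, out of 1096 distinct genes named on the membrane. The RNA came from the extensor digitorum longus (EDL), which extends the toes and is made mainly of fast fibres, of Brown-Norway rats aged 6 months in both groups. There were 8 arrays of muscle denervated for 2 months and 8 arrays of control muscle, numbered by rat from 1 to 8 in each group. The labels do not say how the nerve was interrupted, or whether control muscle came from other animals or from the other limb of the same ones.

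Myogenin (Myog), MyoD (Myod1) and MRF4 (Myf6) belong to the basic helix-loop-helix family: each pairs with an E protein and binds short DNA motifs called E-boxes in the promoters of muscle genes. MEF2 factors such as Mef2d bind a separate, A/T-rich motif and act on many of the same promoters, and histone deacetylases hold them back. In adult fibres the activity imposed by the nerve is known to keep Myog low, and loss of innervation is known to raise it. Follistatin (Fst) binds activins and myostatin outside the cell and keeps them from their receptors.

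Promoter sequences were available here for Myog, Myf6 and Mef2d. None was available for Myod1, which was also higher after denervation, or for Fst, so their promoters were not searched. The promoters of Myog and Myf6 are shown because both genes were higher after denervation. Both promoters also carry the motifs that the family and its MEF2 partners bind. Each is the run of 250 bases just before the annotated gene start, 5′ to 3′ on the gene's strand, from RefSeq on assembly GRCr8. Myog is read from chr13:48297226-48297475 on the plus strand and Myf6 from chr7:44701314-44701563 on the minus strand. Capitals mark matches to the E-box motif CANNTG and to the core of the MEF2 motif, searched as CTANNNNTA on both strands.
Myog: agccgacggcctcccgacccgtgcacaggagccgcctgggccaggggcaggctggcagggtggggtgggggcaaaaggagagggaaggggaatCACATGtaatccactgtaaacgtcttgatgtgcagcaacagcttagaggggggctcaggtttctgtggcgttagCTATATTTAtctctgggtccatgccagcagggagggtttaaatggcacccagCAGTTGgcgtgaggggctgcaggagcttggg
Myf6: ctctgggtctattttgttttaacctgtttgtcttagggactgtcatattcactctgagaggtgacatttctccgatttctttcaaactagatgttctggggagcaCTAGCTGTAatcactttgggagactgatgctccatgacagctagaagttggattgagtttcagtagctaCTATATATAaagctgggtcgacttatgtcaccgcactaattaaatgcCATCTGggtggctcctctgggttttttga

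The Myog window held 2 E-boxes, CACATG beginning 157 bases and CAGTTG beginning 31 bases before the gene start. It held 1 match to CTANNNNTA, CTATATTTA, beginning 83 bases before the start. The Myf6 window held 1 E-box, CATCTG, 29 bases before the start. It held 2 matches to CTANNNNTA, CTAGCTGTA at 145 bases and CTATATATA at 76 bases. The middle bases of CTAGCTGTA are GCTG, which is not A/T-rich. No match overlapped another. Among 33469 rat promoters of the same length, 65.5% held at least 1 E-box, 20.0% held CTANNNNTA on either strand and 13.6% held both. The Mef2d window held no E-box and 1 match to CTANNNNTA, on the opposite strand, 244 bases before its start. It reads TACCCTTAG, with the middle bases CCCT. A match is a description of the letters and shows no binding.

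Values are the deposited ones, on a logarithmic scale whose base is not given in the sources used here, so differences are stated in log units and no fold change is given. Each array had a floor, its lowest value, shared by 22 to 206 probes. Denervated rats 5 to 8 had floors of 2.51 to 4.08, with 22 to 61 probes at them. Control rats 5, 7 and 8 had floors of 5.74 to 6.20, with 92 to 135 probes at them. The floor of control rat 6 was 3.27, with 96 probes. All 80 values of the 5 genes lay above the floors: the lowest was 7.14, and the highest floor of any array was 6.69. Array medians were 7.97 to 8.60 in denervated muscle and 8.10 to 8.51 in control muscle, apart from the control array of rat 6 at 6.98, and the median difference over all 1176 tested probes was 0.22. In both groups the arrays of rats 1 to 4 stood apart from those of rats 5 to 8: after each array was centred and each group's means were removed, the first principal component, with 22.5% of the variance, ran from -17.9 to -9.39 in rats 1 to 4 and from 8.06 to 20.0 in rats 5 to 8. The labels name no batch, so results that bear on these 2 sets of rats are also given within each set. In whole muscle, fewer cells of a type and less RNA per cell cannot be told apart.

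Of the 5 genes, Myog, Myod1 and Myf6 rose in denervated muscle, by 1.85, 1.33 and 1.29 log units on average, while Mef2d and Fst did not pass the test. The test was limma's moderated test over all probes, with Benjamini-Hochberg adjusted p under 0.05. By that rule 64 of 1176 probes (5.44%) were higher and 10 (0.85%) lower in denervated muscle. Centring every array on its median moved this split to 35 higher and 15 lower, and quantile normalisation to 35 and 27. The genes were chosen with earlier results of these data known, so 3 of 5 against that background is a description.

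Myog, the factor that drives terminal differentiation, had a lowest value of 10.13, a median of 11.20 and a highest of 11.98 in denervated muscle, against 8.16, 9.16 and 10.42 in control muscle. The groups overlapped narrowly: 6 of 8 denervated arrays lay above every control array, and 7 of 8 control arrays lay below every denervated array. The means were 11.07 ± 0.61 in denervated muscle and 9.22 ± 0.68 in control muscle (SD, n = 8 each). The difference was 1.85 log units (SE 0.36, 95% interval 1.13 to 2.58, limma adjusted p = 3.79e-04), the 21st highest of the 1176 probes. An exact two-sided permutation test over all groupings of the 16 arrays gave p = 0.000466, and 0.0196 after adjustment over all probes. The denervated array was above the control array of the same rat number in 8 of 8 cases, as it also was for Myod1. The rat numbers were not taken as pairs.

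Myod1, the factor that commits cells to the muscle lineage, ran from 8.84 through a median of 10.60 to 11.30 in denervated muscle, against 7.14, 9.42 and 10.28 in control muscle. Here the groups overlapped more, with 5 of 8 denervated arrays above every control array and 3 of 8 control arrays below every denervated one. The means were 10.26 ± 0.87 in denervated and 8.93 ± 1.25 in control muscle (SD, n = 8 each). The difference was 1.33 log units (SE 0.42, 95% interval 0.48 to 2.18, limma adjusted p = 0.0450), just past the threshold. The exact permutation test gave p = 0.0289, or 0.196 after adjustment over all probes. After median centring the difference was 1.12 log units (limma adjusted p = 0.157), and leaving out 1 array kept the call in 7 of 16 cases; it was lost without the control array of rat 5, 6, 7 or 8 and without the denervated array of rat 1, 2, 3, 4 or 6.

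Myf6, also called MRF4, the most abundant of the family in adult fibres, ran from 10.34 through a median of 10.65 to 11.51 in denervated muscle, against 8.25, 9.44 and 10.38 in control muscle. It overlapped as narrowly as Myog, with 6 of 8 denervated arrays above every control array. The denervated arrays were also close together, at 10.75 ± 0.40, against 9.46 ± 0.75 in control muscle (SD, n = 8 each). The difference was 1.29 log units (SE 0.36, 95% interval 0.58 to 2.01, limma adjusted p = 0.0203), and the exact permutation test gave p = 0.000466, or 0.0196 adjusted over all probes. The limma call was lost without the control array of rat 5 (adjusted p = 0.0543), without the denervated array of rat 6 (0.0576) and under quantile normalisation (0.76 log units, adjusted p = 0.0594).

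**Figure D1:**
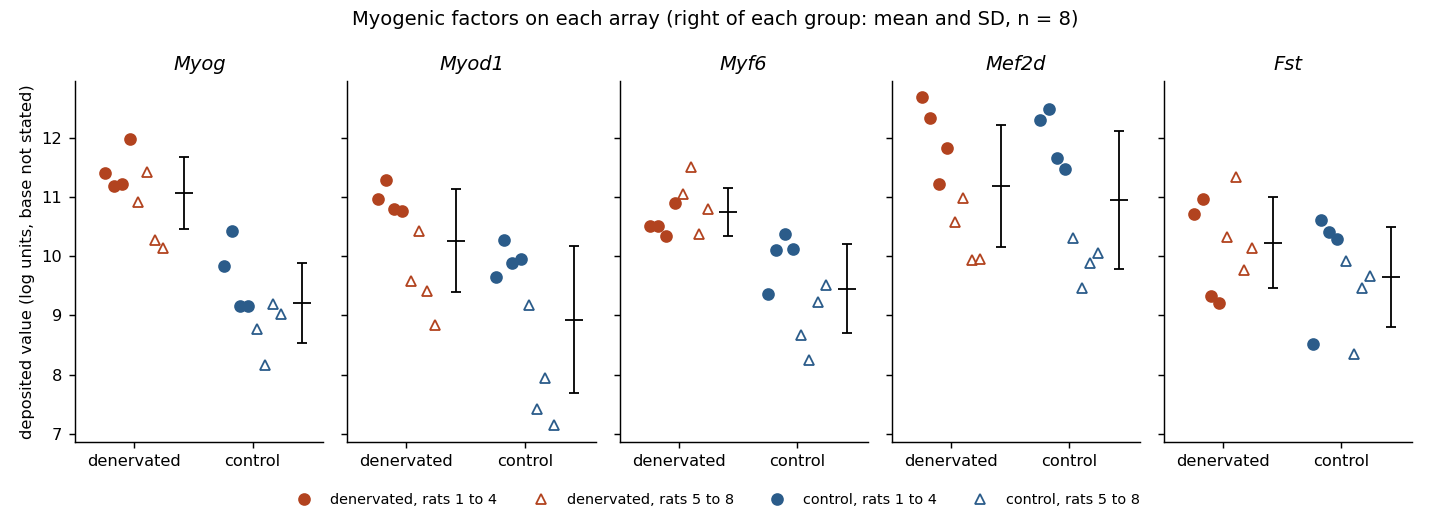
Deposited values (log units, base not given) of the 5 genes on each of the 16 arrays, denervated muscle left of control muscle, with points marked by set of rats and group means drawn. Myog and Myf6 overlap least between groups, and Myod1 and Mef2d lie lower in rats 5 to 8 than in rats 1 to 4 in both groups.

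Mef2d, the one MEF2 family member among the named probes, ran from 9.93 through a median of 11.11 to 12.69 in denervated muscle, against 9.47, 10.89 and 12.48 in control muscle. The ranges nearly coincided, and 1 of 8 denervated arrays lay above every control array. The difference was 0.24 log units (SE 0.45, 95% interval -0.67 to 1.15, limma adjusted p = 0.850), close to the 0.22 of the median probe. The interval still holds differences as large as 1.15, so the test does not show that the level was equal. Quantile normalisation turned the direction, to -0.62 log units (limma adjusted p = 0.164, and 0.0145 with the set of rats as a block).

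Fst, the activin and myostatin antagonist, ran from 9.21 through a median of 10.24 to 11.34 in denervated muscle, against 8.35, 9.80 and 10.62 in control muscle. The 2 groups overlapped over most of their range, with 3 of 8 denervated arrays above every control array. The difference was 0.57 log units (SE 0.38, 95% interval -0.19 to 1.34, limma adjusted p = 0.437), and the exact permutation test gave p = 0.180. After median centring it was 0.36 log units (limma adjusted p = 0.624) and under quantile normalisation 0.0020 (adjusted p = 0.997). It was 0.10 for rats 1 to 4 and 1.04 for rats 5 to 8 (limma adjusted p = 0.515 for the interaction), and 0.38 without the control array of rat 6.

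**Figure D2:**
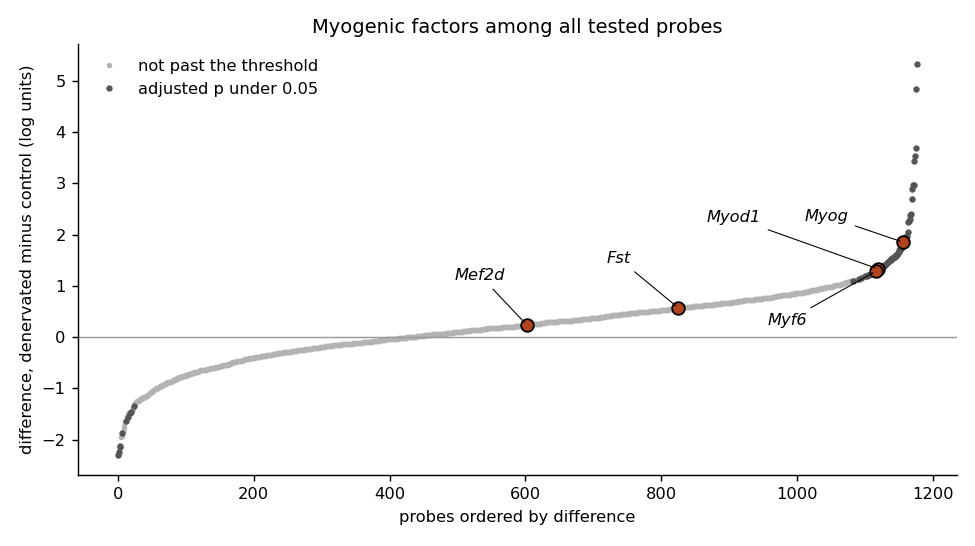
Difference between denervated and control muscle (log units) for all 1176 tested probes, with the 5 genes marked. Myog stands 21st by difference, Myod1 58th and Myf6 61st, while Fst at 352nd and Mef2d at 575th lie within the bulk.

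The sets of rats differed most for Mef2d and Myod1. With the group in the model, Mef2d was 1.85 log units higher in rats 1 to 4 than in rats 5 to 8, the 13th highest such shift of 1176 probes, and Myod1 was 1.71 higher, the 19th. In denervated muscle Mef2d averaged 12.02 in rats 1 to 4 and 10.37 in rats 5 to 8, and in control muscle 11.98 and 9.93, with no overlap between sets in either group. The shift was 0.81 for Myog, 0.36 for Myf6 and 0.13 for Fst, against a median of 0.18 over all probes. The 2 genes with the widest spread within a group were thus those that differed most between sets.

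Within the sets, the denervated minus control difference of Myog was 1.80 log units for rats 1 to 4 and 1.90 for rats 5 to 8, and the groups overlapped in neither. Higher without overlap was found for 4.93% of probes in rats 1 to 4, for 19.3% in rats 5 to 8 and for 2.55% in both. Myod1 was higher by 1.01 log units in rats 1 to 4, without overlap, and by 1.65 in rats 5 to 8, with overlap. Myf6 was higher by 0.57 log units in rats 1 to 4, with overlap, and by 2.02 in rats 5 to 8, without. The difference between these Myf6 values was -1.45 log units (SE 0.54, limma adjusted p = 0.205 for the interaction), and -0.87 after median centring (adjusted p = 0.556), so a difference between sets was not shown. Over all probes the median difference was itself -0.03 in rats 1 to 4 and 0.55 in rats 5 to 8.

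With the set of rats as a block, limma's adjusted p was 5.87e-06 for Myog, 0.00202 for Myod1 and 0.00226 for Myf6. In that fit 9.95% of probes were higher in denervated muscle. All 3 genes also passed with the block after median centring and after quantile normalisation. With the block and quantile normalisation Myod1 differed by 0.98 log units (limma adjusted p = 0.0309) and Myf6 by 0.76 (limma adjusted p = 0.0353). The share of all probes that passed with the block after either scaling is not given here, so these passes are a description. An exact permutation of arrays within each set, over 4900 groupings, gave p = 0.000408 for Myog, the smallest it can give, and 0.000816 for both Myod1 and Myf6. It gave 0.351 for Mef2d and 0.203 for Fst. The sets were noticed in these data, and the block with centring or quantile normalisation and the permutation within sets were added after they were seen.

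**Figure D3:**
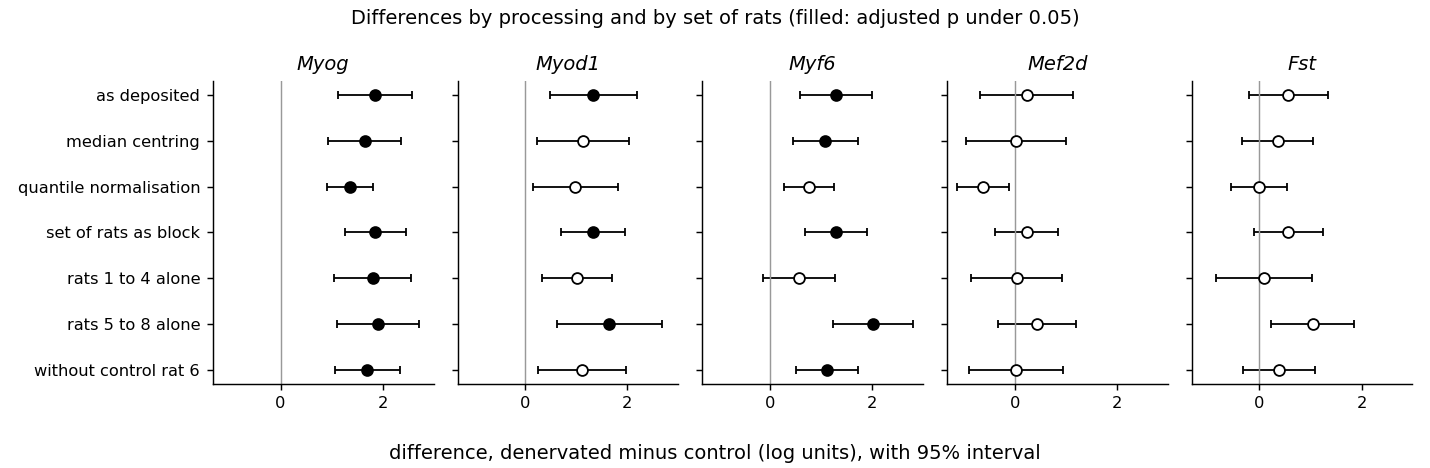
Denervated minus control difference (log units) of the 5 genes as deposited, under other scalings and fits, and within each set of rats. Myog stays between 1.35 and 1.90 in the settings shown, and Mef2d crosses to -0.62 under quantile normalisation.

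Differences between genes on the same array cancel any offset of a whole array, and 10 pairs of the 5 genes were compared in this way with exact two-sided permutation tests. Myog relative to Mef2d was -0.12 ± 0.69 in denervated muscle and -1.74 ± 0.69 in control muscle (SD, n = 8 each), a difference of 1.61 log units (exact p = 0.00140, adjusted over the pairs 0.00699). Myod1 relative to Mef2d was -0.93 ± 0.42 in denervated and -2.02 ± 0.58 in control muscle, a difference of 1.09 (exact p = 0.00109, adjusted 0.00699). Myog relative to Fst differed by 1.28 log units (exact p = 0.0124, adjusted 0.0414). The other 7 pairs did not pass: Myf6 relative to Mef2d differed by 1.05 (exact adjusted p = 0.113), Myf6 relative to Fst by 0.72 (exact adjusted p = 0.0979), and Myog exceeded Myod1 by 0.52 more in denervated muscle (exact adjusted p = 0.240). Myod1 relative to Myf6 differed by 0.04 log units over all rats (exact adjusted p = 0.938), made up of 0.44 for rats 1 to 4 and -0.37 for rats 5 to 8. When arrays were permuted within each set of rats, added after the sets were seen, Myog relative to Mef2d, Myod1 relative to Mef2d and Myog relative to Fst passed again (exact adjusted p = 0.00408, 0.00816 and 0.0265), and Myf6 relative to Mef2d passed as well (exact adjusted p = 0.0259), with 0.53 for rats 1 to 4 and 1.58 for rats 5 to 8. The exact adjusted p of the other 6 pairs then ran from 0.0776 to 0.923.

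Of 47 genes listed as dimer partners, regulators or corepressors of these factors, 6 were measured. Runx1, which denervation is known to induce, rose by 3.54 log units (SE 0.41, limma adjusted p = 6.06e-09), with 3 of its control values at the floor. The other 5 did not pass. The count of 1 of 6 stands beside 6.29% of all probes called in either direction, and is close to that background. Thra, the thyroid hormone receptor alpha, differed by 0.65 log units (0.22 without the control array of rat 6) and Rb1, the retinoblastoma protein, by 0.46 (0.01 without it). The median of the 6 was 0.40, against 0.22 over all probes.

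Among 48 muscle genes described as targets of myogenic or MEF2 factors, 14 were measured, of which 4 rose and 1 fell, beside 5.44% and 0.85% of all probes. Tnnt2, cardiac troponin T, which is also made in embryonic skeletal muscle, averaged 11.46 ± 0.90 in denervated and 6.12 ± 1.27 in control muscle (SD, n = 8 each), with 4 control arrays at the floor. Myh3, embryonic myosin heavy chain, averaged 9.28 ± 1.36 in denervated and 5.60 ± 1.04 in control muscle, with 7 control arrays at the floor. Ncam1, an adhesion molecule that spreads over the fibre surface after denervation, rose by 1.96 log units (limma adjusted p = 3.43e-04; 1.01 for rats 1 to 4 and 2.92 for rats 5 to 8), and Casq2, a calcium store protein of heart and slow fibres, by 1.77 (0.00126). Mylk2, the skeletal myosin light chain kinase, fell by 1.87 (4.18e-04; -2.67 for rats 1 to 4 and -1.07 for rats 5 to 8). The median of the 14 was 0.65, against 0.22 over all probes.

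Of 46 genes of the activin, myostatin and BMP pathway, on whose ligands Fst acts, 8 were measured and 1 passed, beside 6.29% of all probes called in either direction, so 1 of 8 is close to that background. Dcn, decorin, a matrix proteoglycan that binds such ligands, rose by 1.40 log units (limma adjusted p = 0.0318; 0.68 for rats 1 to 4 and 2.13 for rats 5 to 8), a call lost after median centring (0.0782), after quantile normalisation (0.180) and without any of 9 single arrays, those of control rats 5, 6, 7 and 8 and denervated rats 1, 2, 4, 6 and 8. The receptor Acvr1c differed by 0.95 log units (limma adjusted p = 0.112, or 0.0478 without the control array of rat 2) and Smad9 by 0.85 (adjusted p = 0.206). With the set of rats as a block, Dcn (limma adjusted p = 0.0029) and Acvr1c (0.0363) passed and Smad9 did not (0.0865). In that fit 9.95% of all probes were higher. The median of the 8 was 0.28. None of 49 listed calcium and kinase inputs to MEF2 and Myog was among the named probes tested here.

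**Figure D4:**
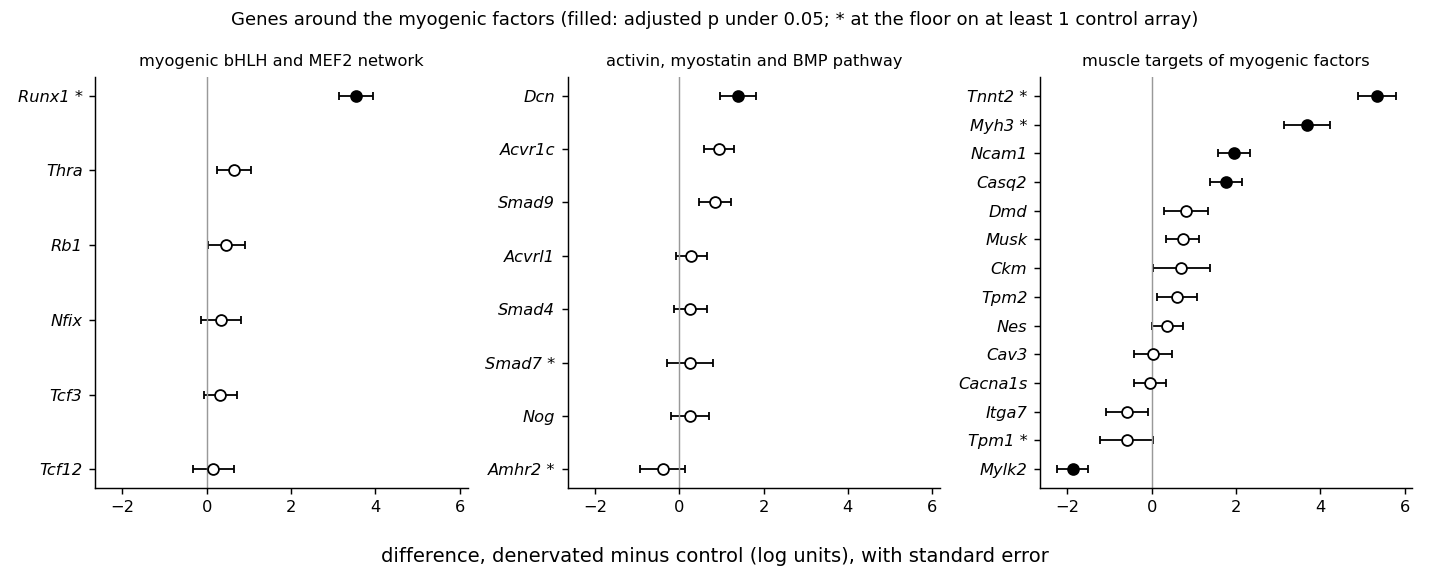
Denervated minus control difference (log units) of each measured gene of the 3 lists with measured genes, with filled points for those past limma's adjusted p of 0.05. Runx1, Tnnt2 and Myh3 lie farthest to the right, and Mylk2 is the one gene that was lower past that threshold.

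Markers of the cells that the muscle could hold were read beside these genes. Of muscle fibre markers 4 of 22 were measured, none at a floor, with a mean level of 10.87 to 11.79 over denervated arrays and 10.20 to 13.50 over control arrays, so defining markers of the labelled tissue were present. Of these 4, Mylk2 fell by 1.87 log units (limma adjusted p = 4.18e-04), beside 0.85% of all probes that were lower. The other 3 did not pass. Ckm, muscle creatine kinase, differed by 0.70 log units (limma adjusted p = 0.624), or 1.27 without the control array of rat 1 and 0.43 without that of rat 3. Pgam2 differed by 0.15 and Cacna1s by -0.03. Under quantile normalisation these last were lower, by -0.93 and -0.79 (limma adjusted p = 0.0172 and 0.0023). Of satellite cell and myoblast markers, the cells in which Myod1 and Myog act in regeneration, 2 of 17 were measured and neither passed: Sdc4, a syndecan, differed by 0.86 log units (adjusted p = 0.340) and Itga7, a laminin receptor also made by fibres, by -0.59 (adjusted p = 0.559; -0.34 without the denervated array of rat 5). Pax7 and Myf5, which define satellite cells, were not analysed here. The mean level of Sdc4 and Itga7 was 6.31 to 8.61 in denervated and 6.29 to 8.07 in control muscle. Of dividing cell markers 2 of 17 were measured and neither passed: Plk1, a mitotic kinase, differed by 0.92 (adjusted p = 0.241) and Mcm6, a replication helicase subunit, by -0.43 (adjusted p = 0.705; -0.20 without the control array of rat 7 and -0.27 without the denervated array of rat 2).

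Some markers of non-muscle cells also rose in denervated muscle, and the counts that follow stand beside 5.44% of all probes that rose. Of fibroblast markers 3 of 4 measured (of 14 listed) rose: S100a4 by 2.88 log units, Bgn, biglycan, by 2.30, and Dcn as above. The mean level of the 4 was 10.47 to 11.38 in denervated and 7.53 to 9.999 in control muscle. Of macrophage and leukocyte markers 1 of 3 measured (of 16) rose, Mmp12 by 1.16 (limma adjusted p = 0.0368), while Cd48 differed by 1.24 (0.0688, and past the threshold without the control array of rat 2 or of rat 4); the mean level was 9.55 to 10.32 in denervated and 7.58 to 9.81 in control muscle. Of Schwann cell and nerve markers 1 of 8 measured (of 15) rose, Nefm, a neurofilament, by 1.38 (limma adjusted p = 0.0318). Its difference was 2.61 for rats 1 to 4 and 0.14 for rats 5 to 8 (limma adjusted p = 0.171 for the interaction, and 0.0107 after median centring). The other 7 did not pass, and 5 of the 8 differences were positive. Of the other neurofilaments, Nefl differed by 0.12 and Nefh by -0.47. Sox10 differed by -0.04 and Gfap by -0.75, with Gfap at the floor on 5 denervated and 7 control arrays. Cnp differed by 0.55 and S100b by 0.41. Prx, periaxin, differed by 0.59 (0.32 without the control array of rat 6 and 0.36 without that of rat 8). The mean level of the 8 was 6.49 to 7.85 in denervated and 5.28 to 7.68 in control muscle. The calls of Mmp12 and Nefm were lost after median centring and after quantile normalisation. With arrays left out singly, Mmp12 lost its call without control rat 1, 5, 6 or 7 or denervated rat 1, 2, 4, 6 or 8. Nefm lost its call without control rat 3, 5 or 6 or denervated rat 1, 2, 3 or 4. With the set of rats as a block, both passed (limma adjusted p = 0.0089 for Mmp12 and 0.0115 for Nefm). Cd48 (0.0346) and the remaining measured leukocyte marker, C1qb (0.0324), then passed as well. In that fit 9.95% of all probes were higher. Of adipocyte markers 1 of 2 measured (of 8) rose, Scd, a fatty acid desaturase, by 2.97 with 5 control arrays at the floor, while Acly, ATP citrate lyase, differed by 0.08; the mean level was 6.52 to 9.22 in denervated and 4.97 to 7.83 in control muscle. Of endothelial and smooth muscle markers 2 of 10 were measured and neither passed, Tagln at 0.55 (0.37 without the control array of rat 6) and Myh11 at 0.45 (0.00 to 0.84 with single arrays left out); the mean level was 6.68 to 9.72 in denervated and 5.45 to 9.65 in control muscle. The part of these cells in the differences of Myog, Myod1 and Myf6 was not tested.

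The probes whose values followed each gene most closely over the 16 arrays were found by Pearson's r of array-centred values, which the group and the set of rats both raise. They were Kcnn3, Smc3 and Tmod1 for Myog (r = 0.92, 0.90 and 0.90), Eln, Prnp and Ap2m1 for Myod1 (0.95, 0.93 and 0.92) and S100a4, Ruvbl1 and Ddt for Myf6 (0.86 each). For Mef2d they were Nfix, Ybx3 and Nfic (0.99, 0.95 and 0.94), and for Fst Capns1, Arl1 and Taok1 (0.79, 0.76 and 0.74). After the mean of each group and set was removed, r was 0.95 for Nfix with Mef2d, 0.87 for Capns1 with Fst, 0.83 for Eln with Myod1, 0.73 for Kcnn3 with Myog and 0.68 for S100a4 with Myf6. These are descriptions of 16 arrays on which the points share a normalisation and a signal level.

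**Figure D5:**
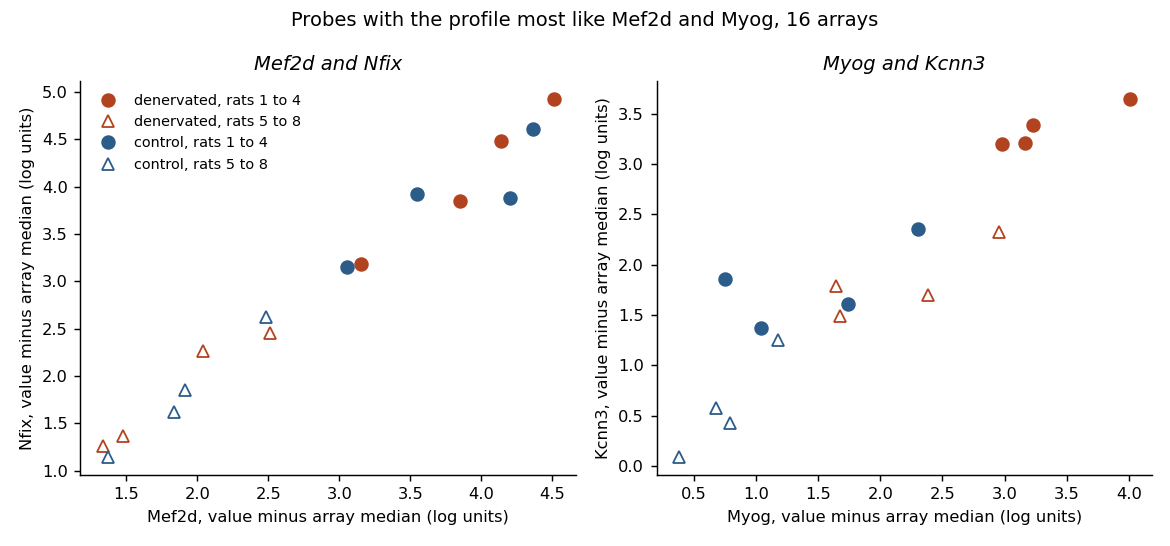
Values of Nfix against Mef2d and of Kcnn3 against Myog on each of the 16 arrays, each minus its array median (log units). Points are marked by group and set of rats. Nfix was the probe most like Mef2d (Pearson's r = 0.99), and Kcnn3 the one most like Myog (0.92).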

How the data were processed

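Per the labels' protocols, labelled cDNA was hybridised to Clontech Rat Atlas nylon membranes, read on a phosphorimager, quantified with Array Vision and scaled by linear regression. From their range, the deposited score is logarithmic; the sources used here give no log base, background correction or origin of the repeated lowest values. Membrane probes may also bind transcripts of close relatives of a gene.

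Of 1185 probes, 9 reference probes on another scale were left out. Of the 1176 tested, 1106 carried 1 gene symbol, 2 several and 68 none, and 1099 gene IDs were found in a RefSeq table of GRCr8, used for names. Genes with several probes entered lists by the probe with the highest mean. The main test was limma's (version 3.58.1, run under R 4.3.3, lmFit and eBayes with trend, two-sided, Benjamini-Hochberg under 0.05) over the 16 arrays. It was tried on simulated data with independent noise for each probe, without a shift between sets of rats, array offsets or floors. That trial does not bear on those features of the data. P-values measure the spread between arrays, each taken as 1 rat. Alternatives were other scalings, filters, fits, blocks and single arrays left out. The number of arrays limits the precision.

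The genes and lists were chosen with earlier results of these data known. Named from each list were the genes that passed and the 3 with the lowest p, from each marker list the 2 with the lowest p, and for each of the 5 genes the 3 probes of highest r. Further genes of the muscle fibre, leukocyte and nerve marker lists are given beside those. Planned correlations between the 5 genes within a group are not given, since the arrays of a group fall into 2 sets of 4.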

Additional observations from a re-analysis of the deposited data

Results flagged for a closer look

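In 7 of 90 groups of 8 arrays, from 45 named genes, 1 array stood far from the other 7, where chance alone gives about 1 in 20; none was a group of Myog, Myod1, Myf6, Mef2d or Fst. The lowest control array was that of rat 6, which also had the lowest array median, for Thra (5.69, next 8.58), Rb1 (5.37, next 7.95), Bgn (5.56, next 7.78), Tnnt2 (3.27, next 5.66) and Myh3 (3.27, next 5.18). For Tnnt2 and Myh3 these values were array floors: 3.27 of control rat 6, 5.66 of rat 2 and 5.18 of rat 4. Their gaps are thus between floors and not between measured levels. For Itga7 the control array of rat 4 was lowest at 6.25, next to 7.49. For Scd the denervated array of rat 3 was lowest at 7.12, next to 9.20.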

How the results depend on the processing

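Myog was past the threshold in every setting run, at 1.35 to 1.90 log units, and with each array left out (1.47 to 2.02). Myod1 was no longer called after median centring (1.12 log units), quantile normalisation (0.98), with array weights (1.06), in rats 1 to 4 alone (1.01), and, at 1.33, with all probes, a common floor, no trend, robust fitting or the exact permutation; with single arrays left out, as deposited or centred, it ran from 0.85 to 1.53. Myf6 was no longer called after quantile normalisation (0.76), without the trend (1.29) or in rats 1 to 4 alone (0.57), and ran from 0.93 to 1.43 with single arrays left out. Mef2d turned to -0.62 under quantile normalisation, with or without the set of rats as a block, and ran from -0.20 to 0.46 with single arrays left out. After median centring with single arrays left out, Myod1 was called in 0 of 16 fits and Myf6 in 6 of 16. Fst, never called, ran from 0.20 to 0.72 with single arrays left out. The fits of 1 set alone also held fewer arrays. The causes of these changes were not tested.

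The count of changed probes was 74 as deposited, 42 without the trend, 131 with the set as a block, 30 in rats 1 to 4 alone, 139 in rats 5 to 8 alone and 43 to 98 with single arrays left out, or 39 to 72 with centring as well. With the rat number as a replicate block it was 113, or 141 with centring, and the adjusted p was 6.77e-06 for Myog, 0.00349 for Myod1 and 0.00414 for Myf6. The numbers were not taken as pairs, since the labels do not say whether same-numbered arrays share an animal. Same-numbered arrays correlated at 0.0592 to 0.193, and 3 of 8 denervated arrays correlated best with their own number. Between the groups the mean r was 0.110 for arrays of the same set of rats and -0.110 for arrays of different sets. These values therefore cannot decide whether the numbers are pairs.

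Among the genes named from the lists by the rule above, signs turned for Rb1 (-0.13) and Prx (-0.41) in rats 1 to 4. They also turned for Mcm6 (0.22) in rats 5 to 8. For Acly the sign turned after centring (-0.13), in rats 1 to 4 (-0.34) and with single arrays left out (-0.19 to 0.31). With single arrays left out, Myod1 relative to Myf6 ran from -0.22 to 0.25 and Mef2d relative to Fst from -0.57 to 0.023.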
